A study of Anopheles arabiensis with 20 samples.

Results

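The genes described here are 62 nuclear genes of the malaria mosquito *Anopheles arabiensis*. Their mean transcript levels were at least 2 times lower in the Sekoru laboratory strain than in every other group of the study. They were found among 13830 nuclear gene IDs, those that start with AARA, in a table of 13867. Members were chosen by their measured levels, in CPM (counts scaled to equal nuclear totals per library), averaged over the 4 libraries of a group. A gene was a member when the lowest of the other 4 group means was at least 1 CPM and at least 2 times the Sekoru mean. Of the 9842 genes that met the 1 CPM condition, 0.630% were members. With the Sekoru and Mozambique strains exchanged, the same rule gave 162 genes.

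SEK (Sekoru) is an Ethiopian laboratory strain that the labels describe as susceptible to insecticides. The field populations ASN (from Asendabo), CHW (from Chewaka) and TOL (from Tolay) were raised from larvae gathered in south-west Ethiopia and were found earlier to resist deltamethrin, a pyrethroid, and DDT. MOZ is a susceptible laboratory strain that came from Mozambique. Every library held polyA RNA of 10 pooled whole females, aged 3 to 5 days and without a blood meal, so each value averages over the animals and tissues of a pool. The populations were reared where they were collected and both strains in a similar way, so origin and rearing place cannot be told apart. SEK, MOZ and CHW replicates 3 and 4 were sequenced in the second of 2 runs, and ASN, TOL and CHW replicates 1 and 2 in the first.

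As background, pyrethroids and DDT act on the voltage-gated sodium channel of nerve cells. Mosquitoes are known to resist them through changes of this channel, through enzymes that break insecticides down and through a thicker cuticle. The IDs come without gene names, and the RefSeq table used here matched 0 of them, so no function, tissue marker, sequence or position is given for any member. Gene lengths are not known either, so levels are compared between groups for 1 gene at a time and never between genes. In whole-body pools, fewer cells of a type and less RNA per cell cannot be told apart.

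Library totals ran from 12205530 to 21516390 counts. SEK replicate 2 stood apart from the other SEK libraries in 114 genes picked for TOL replicate 1, where each had 10 counts or more while no other TOL library exceeded 2. These genes took 0.26%, 0.0502% and 0.0183% of the counts in SEK replicates 1, 3 and 4 and 0.000784% in SEK replicate 2, and 0 of the 62 members was among them. On the CPM scale of the rule the median tested gene was itself shifted, with a log2 ratio of SEK to ASN of 0.10, to CHW of 0.08, to TOL of 0.16 and to MOZ of -0.03.

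Most members were reduced in SEK rather than missing. The SEK mean stood below the lowest other mean by 2 to under 3 times in 36 members, by 3 to under 5 times in 15, by 5 to under 10 times in 7 and by more than 10 times in 4. In the median member SEK had 37.7% of the lowest other mean. Against single groups, the SEK mean of the median member was 23.4% of ASN, 30.1% of CHW, 22.6% of TOL and 27.7% of MOZ. All these values chose the members and are given as a description, with no test.

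**Figure D1:**
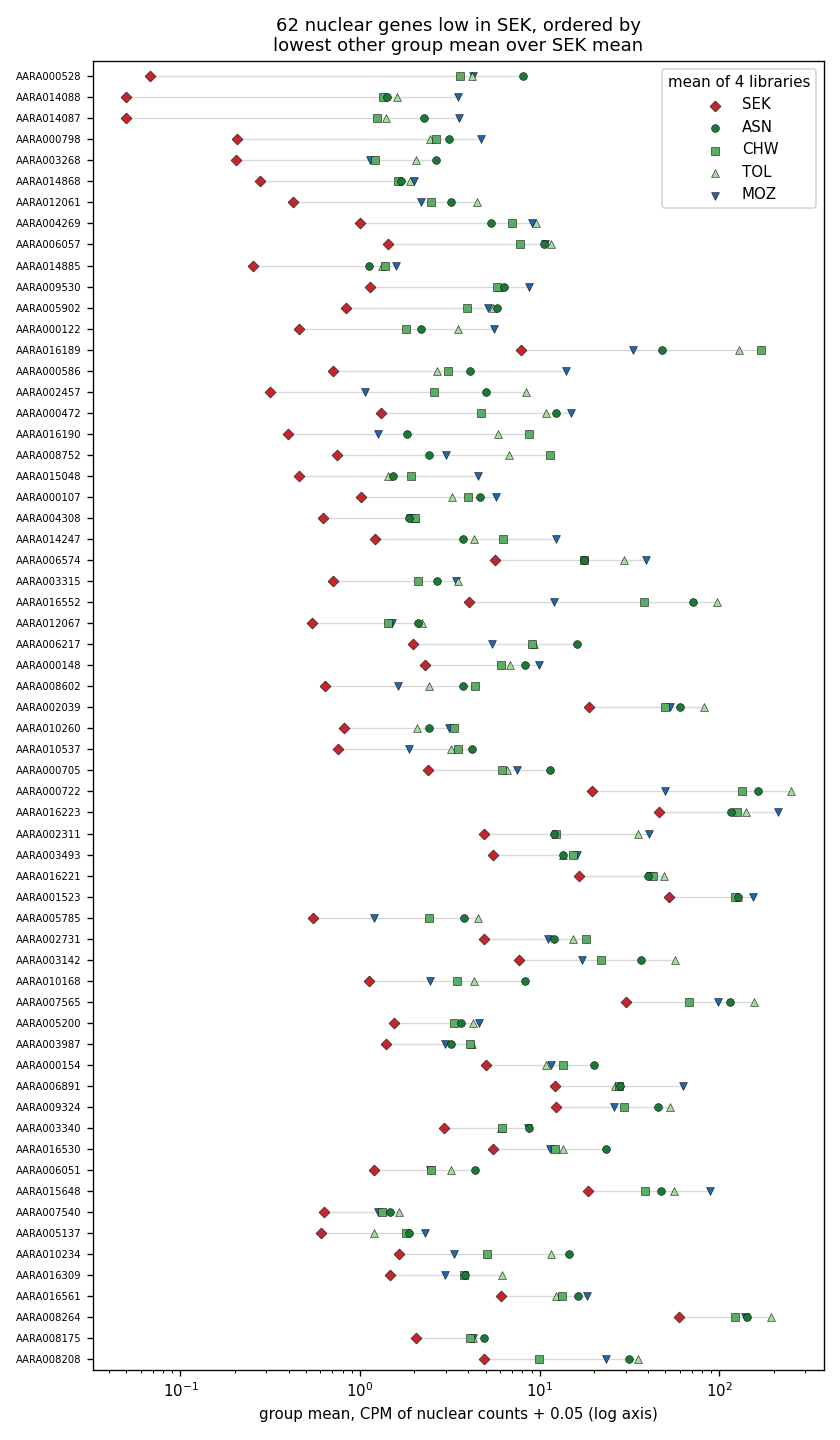
Group means of the 62 members in CPM plus 0.05 (log axis) for SEK, ASN, CHW, TOL and MOZ, each over 4 libraries, ordered by the ratio of the lowest other mean to the SEK mean. SEK lies left of the other groups by the rule, and the top 3 members had 0 or 1 count in all SEK libraries together.

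The rule compares means, and 40 members also had every SEK library below each of the other 16 libraries. Among the 9842 genes at 1 CPM or more, 1.39% were separated in this way, a share from which nothing is read because the rule used the same contrast. The number was again 40 without SEK replicate 2. In the 22 overlapping members as few as 8 of the 16 other libraries lay above every SEK library. The counts behind a member differed widely, with a median of 69.5 in the 4 SEK libraries together. They were under 20 in 9 members and at least 100 in 26.

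**Figure D2:**
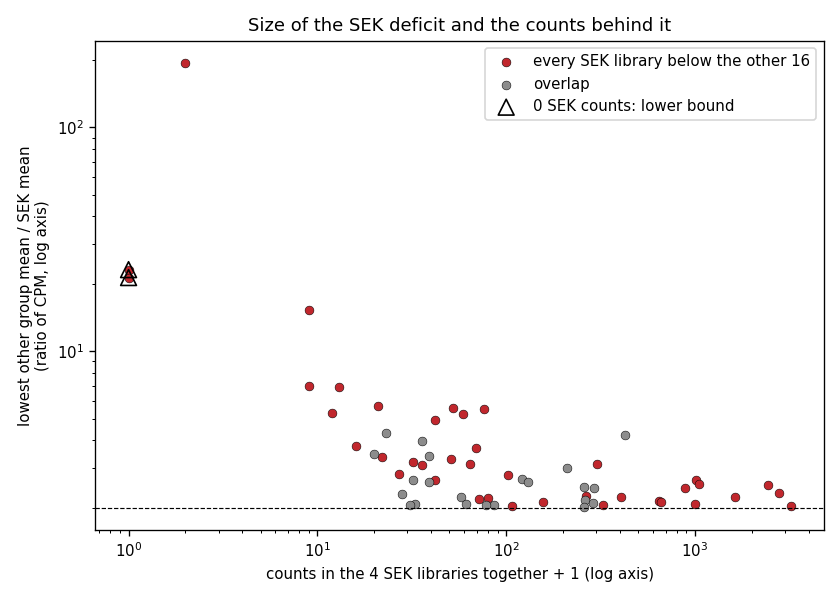
Ratio of the lowest other group mean to the SEK mean (log axis) against the counts in the 4 SEK libraries together plus 1 (log axis) for the 62 members. Red points are the 40 members with every SEK library below the other 16, grey points the 22 that overlap, and triangles the 2 members with 0 SEK counts, whose ratio is a lower bound at 3 counts.

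At the threshold, AARA008208 and AARA008175 were the members just inside, with a lowest other mean 2.01 and 2.03 times the SEK mean. AARA016415 and AARA000306 fell just outside, at 1.994 and 1.992 times. AARA008175 averaged 1.99 ± 0.178 CPM in SEK, 4.81 ± 0.890 in ASN, 4.05 ± 0.706 in CHW, 4.18 ± 0.342 in TOL and 4.22 ± 0.376 in MOZ (SD, n = 4 each). AARA016415, outside, averaged 15.9 ± 4.75 CPM in SEK, 36.7 ± 5.26 in ASN, 51.3 ± 16.7 in CHW, 31.8 ± 10.8 in TOL and 52.2 ± 9.97 in MOZ. Of all members, 34 stayed members whichever of the 20 libraries was left out.

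The strongest deficits were in genes with no or almost no counts in SEK. AARA014087 and AARA014088, whose IDs follow each other in the table, had 0 counts in all 4 SEK libraries. They were the only 2 genes with 0 counts in SEK and at least 20 in each other group, and 3 genes met the same condition for MOZ. With 3 counts over the SEK libraries as the limit that a count of 0 allows, 0.0560 CPM, AARA014088 was at least 24.3-fold lower in SEK than in ASN, 23.2-fold lower than in CHW, 27.7-fold lower than in TOL and 61.3-fold lower than in MOZ. These limits take the counts of the other group as exact and cover counting error in SEK alone. With the error of both counts, the lower ends of the exact 95% intervals were 19.1 for ASN, 18.8 for CHW, 22.04 for TOL and 49.4 for MOZ.

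In AARA014088 the other libraries held 1.84, 1.47, 1.20 and 0.943 CPM in ASN, 1.38, 0.845, 0.852 and 2.11 in CHW, 1.25, 2.09, 1.68 and 1.20 in TOL, and 4.77, 3.14, 3.40 and 2.43 in MOZ. AARA014087, named after its values were seen, held 3.43, 2.06, 2.07 and 1.34 CPM in ASN, 1.14, 1.27, 1.08 and 1.29 in CHW, 0.936, 2.57, 1.09 and 0.771 in TOL, and 4.60, 2.53, 2.44 and 4.44 in MOZ. Both genes were present in all 16 other libraries, and in both every MOZ library lay above every CHW library. The IDs on either side were present in SEK: AARA014086 averaged 3.78 ± 0.398 CPM in SEK, against 1.86 ± 0.303 in ASN, 2.57 ± 0.547 in CHW, 2.88 ± 0.485 in TOL and 2.38 ± 0.692 in MOZ (SD, n = 4 each). AARA014089 averaged 8.48 ± 2.42 CPM in SEK, against 13.2 ± 3.22, 8.95 ± 1.98, 7.69 ± 2.24 and 11.3 ± 3.03 in ASN, CHW, TOL and MOZ.

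AARA000528 had 1 count in SEK, in replicate 4, which is 0.0726 CPM. The other libraries held 13.9, 5.23, 7.80 and 5.27 CPM in ASN, 1.46, 6.43, 3.56 and 2.66 in CHW, 4.05, 4.74, 4.87 and 3.00 in TOL, and 4.09, 5.27, 3.29 and 4.19 in MOZ. No library of another group came near the SEK level. The ratio of pooled CPM of the other group to SEK was 423 for ASN (95% interval for counting error 75.5 to 16750), 185 for CHW (32.8 to 7357), 224 for TOL (39.7 to 8874) and 218 for MOZ (38.6 to 8637), each with SEK in the denominator.

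The ID before it in the table, AARA000527, showed the reverse pattern. This gene is not a member and was looked at after the values of AARA000528 were seen. It had 127, 123, 81 and 117 counts in SEK, against 2, 1, 6 and 5 in ASN, 3, 9, 15 and 17 in CHW, 3, 11, 11 and 4 in TOL, and 0, 3, 0 and 0 in MOZ. AARA000528 had 0, 0, 0 and 1 count in the same SEK libraries, against 166, 71, 117 and 67 in ASN, 18, 76, 46 and 39 in CHW, 52, 59, 58 and 35 in TOL, and 48, 52, 58 and 50 in MOZ. In every SEK library nearly all counts of the pair were on AARA000527, and in every other library most were on AARA000528. The sum of both ran from 6.17 to 10.4 CPM in SEK, 5.30 to 14.04 in ASN, 1.70 to 7.19 in CHW, 3.34 to 5.79 in TOL and 3.29 to 5.57 in MOZ, so the sums overlapped between SEK and ASN and between SEK and CHW. How reads shared by overlapping or near-identical genes were counted is not given in the sources used here, and its part in these values was not tested.

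**Figure D3:**
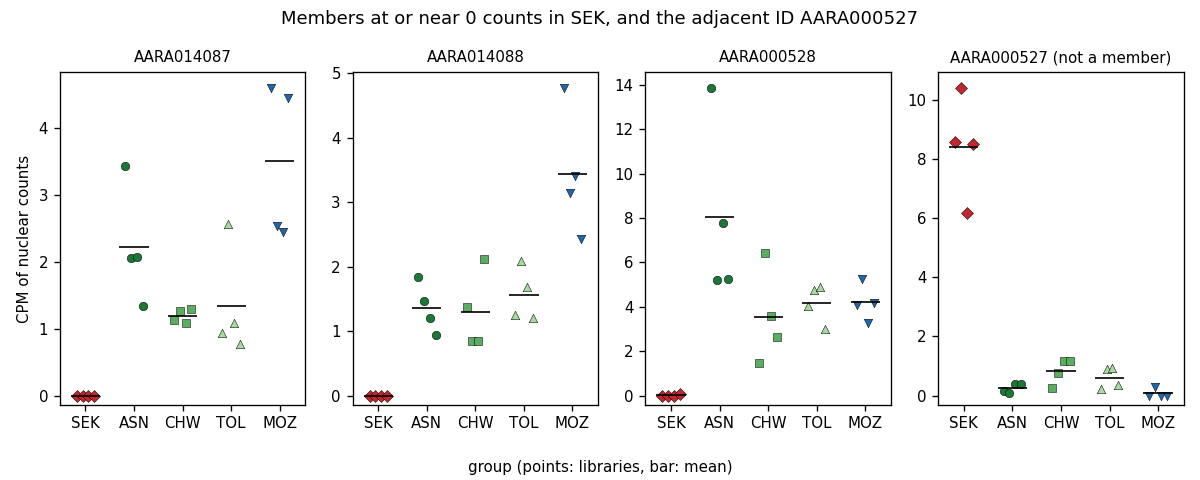
CPM per library (points) and group mean (bar) of AARA014087, AARA014088 and AARA000528, with 0, 0 and 1 SEK count, and of AARA000527, which is not a member. AARA000527 lies at 6.17 to 10.4 CPM in SEK and at 1.16 or less elsewhere.

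The members with the most SEK counts show the other end of the range, a deficit of about 2 times with far more counts behind it. AARA008264 had 3213 counts in SEK, and its libraries held 69.2, 61.6, 55.2 and 53.3 CPM in SEK, 141, 140, 151 and 136 in ASN, 125, 107, 141 and 115 in CHW, 225, 202, 192 and 153 in TOL, and 158, 95.05, 170 and 135 in MOZ. AARA001523 had 2794 counts in SEK, at 52.0, 66.5, 42.6 and 49.2 CPM, against 115, 173, 129 and 88.9 in ASN, 102, 99.3, 99.4 and 188 in CHW, 121, 150, 146 and 89.4 in TOL, and 188, 130, 147 and 149 in MOZ. In both genes all SEK libraries lay below all others, yet AARA008264 was no longer a member without SEK replicate 3, SEK replicate 4 or CHW replicate 3. AARA001523 was no longer one without CHW replicate 4.

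Within SEK the members showed no common shift of 1 library. SEK replicates 1 to 4 were the lowest of the group in 15, 12, 17 and 18 members and the highest in 16, 15, 18 and 13. The median log2 ratio of SEK replicate 2 to the mean of the other SEK libraries was 0.00 over the members, beside -0.12 over the 9842 genes. Single members differed from this. AARA016189 had 1.18 CPM in SEK replicate 2 against 4.38, 7.84 and 17.7 in replicates 1, 3 and 4, a log2 ratio of -2.64, the lowest among the 53 members with at least 20 SEK counts. AARA006051 had the highest, 0.98, with 2.12 CPM in replicate 2 against 1.28, 0.609 and 0.581.

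The replicates of the members were more spread than those of other genes in all 5 groups. The median coefficient of variation was 33.4% in SEK, 35.3% in ASN, 39.8% in CHW, 29.6% in TOL and 32.9% in MOZ over the members, with 60 members in SEK since 2 were at 0. Over the 9842 genes it was 14.6%, 15.5%, 14.9%, 14.8% and 15.7% in the same order. The median biological coefficient of variation estimated by edgeR, which leaves counting error out, was 0.345 over the members and 0.158 over the 11018 genes tested. The rule compares group means, which genes with uneven replicates can pass more easily. Neither set of comparison genes was matched to the members by level. The wider spread is thus a description and is not read as a trait of the members.

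The other groups differed among themselves too. The highest of the 4 other means was a median of 2.06 times the lowest over the members and 1.47 times over the 9842 genes. It was under 2 times in 30 members, beside 80.9% of the 9842 genes, and at least 4 times in 8, beside 2.83%. The lowest of the other means was in ASN in 9 members, CHW in 21, TOL in 11 and MOZ in 21, and the highest in 13, 6, 20 and 23. Over the 9842 genes ASN, CHW, TOL and MOZ were the lowest in 22.3%, 16.7%, 33.0% and 27.9%, and the highest in 20.2%, 18.6%, 15.9% and 45.3%. The lowest of these means had entered the rule, and the members were more spread between replicates. Ratios and ranks of the means are therefore a description, from which no trait of the members is read.

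The comparison of the field populations with MOZ does not involve SEK, and asks whether the members also differed between resistant populations and the other susceptible strain. The means compared had entered the rule, through the lowest of them. The members were thus not chosen apart from these means, here or in the comparisons between populations. All 62 members passed the filter on low counts. Calls are from edgeR's quasi-likelihood test, at an adjusted p under 0.05 over all 11018 genes and a change of at least 2 times, on counts with TMM scaling, which trims extreme genes before libraries are matched. The mean of the populations differed from MOZ in 17 members, 27.4%, beside 13.2% of all genes tested. Of these 9 were higher, beside 6.52% of all genes, and 8 were lower, beside 6.73%. The median log2 fold change was 0.16 over the members and 0.00 over all genes. Since the members were also more spread between replicates than all genes tested, the shares are a description of the members.

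By population, 19 members were called for ASN vs MOZ, 11 higher and 8 lower, beside 15.8% of all genes called, 8.28% higher and 7.49% lower. For CHW vs MOZ 15 were called, 4 higher and 11 lower, beside 10.7%, 4.68% higher and 6.01% lower. For TOL vs MOZ 14 were called, 9 higher and 5 lower, beside 14.1%, 7.73% higher and 6.35% lower. The 3 comparisons share the MOZ libraries. The balance of directions rested on the scaling: with library totals alone the median over all genes moved by -0.33 (log2), and 5 members were then higher and 12 lower for the populations against MOZ, beside 3.90% and 12.6% of all genes. On library totals the split was 6 up and 10 down for ASN vs MOZ, beside 4.90% and 14.9% of all genes, and 6 up and 9 down for TOL vs MOZ, beside 4.20% and 16.9%. The tilt towards lower values on this scale was thus shared by all genes. Unlike the CPM of the rule, these library totals hold mitochondrial counts. Nuclear counts were 68.8% to 73.5% of the totals in ASN and 75.3% to 83.3% in CHW. They were 63.7% to 74.1% in TOL and 80.9% to 85.8% in MOZ. The part of these shares in the tilt was not tested, and the tilt is not a result on nuclear CPM.

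**Figure D4:**
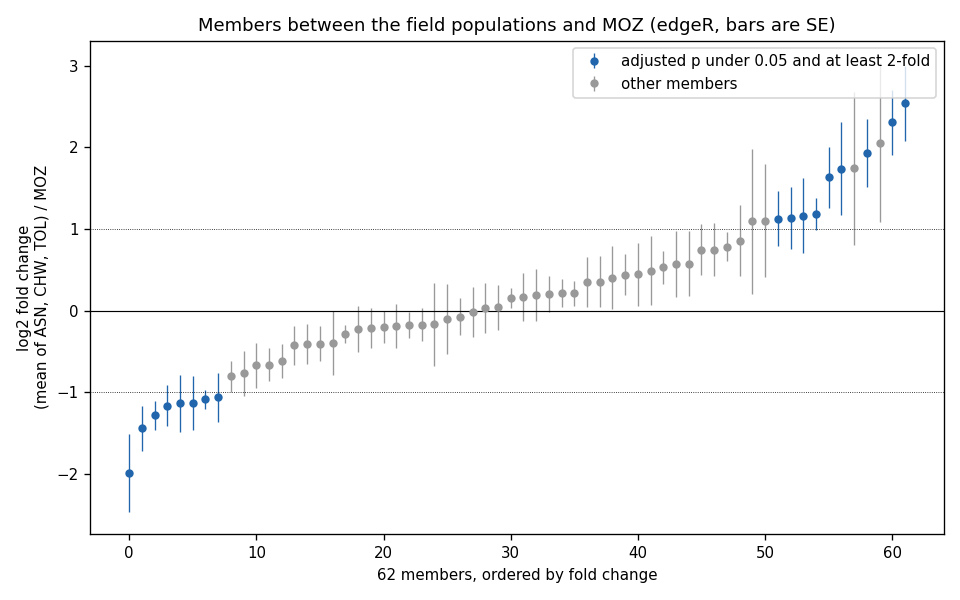
Log2 fold change of the 62 members between the mean of ASN, CHW and TOL and MOZ (edgeR, TMM scaling), ordered by size, with SE bars. The 17 called members are blue, 9 above and 8 below 0.

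The largest increases over MOZ were in AARA016552 and AARA002457. AARA016552 had 17.6, 84.1, 80.5 and 102 CPM in ASN. CHW had 47.9, 29.7, 61.5 and 12.9 CPM and TOL 121, 99.1, 76.9 and 92.2 CPM, against 16.2, 12.7, 13.1 and 6.12 in MOZ. The populations overlapped MOZ only through CHW replicate 4. Its log2 fold change was 2.54 (SE 0.460, edgeR adjusted p 0.000162). Its SEK libraries held 1.96, 3.55, 8.45 and 1.96 CPM, and SEK replicate 3 lay above MOZ replicate 4.

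AARA002457 had 1.92, 6.11, 6.06 and 5.74 CPM in ASN. CHW had 2.51, 2.79, 3.95 and 0.817 CPM and TOL 10.9, 8.52, 7.14 and 6.77 CPM, against 1.28, 0.811, 1.19 and 0.755 in MOZ. Again CHW replicate 4 was the one population library within the range of MOZ. The log2 fold change was 2.31 (SE 0.399, edgeR adjusted p 0.000103). In SEK it had 0.472, 0.0846, 0.0762 and 0.436 CPM, from 15 counts, below every other library.

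The largest decreases were in AARA000586 and AARA015048. AARA000586 had 4.51, 5.96, 2.47 and 3.30 CPM in ASN. CHW had 1.05, 0.676, 0.310 and 10.1 CPM and TOL 1.09, 2.89, 3.11 and 3.43 CPM, against 14.9, 23.0, 10.4 and 7.71 in MOZ. CHW replicate 4 alone reached the MOZ range. The log2 fold change was -1.99 (SE 0.474, edgeR adjusted p 0.00181), and with the sequencing run as a covariate it was -0.06 (adjusted p 0.978). Leaving out single libraries moved it to between -2.70 (without CHW replicate 4) and -1.68 (without MOZ replicate 2). In SEK it held 0.674, 0.677, 1.14 and 0.145 CPM, overlapping CHW and TOL replicate 1, and it was no member without CHW replicate 4.

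AARA015048 had 1.76, 1.25, 1.53 and 1.34 CPM in ASN. CHW had 2.19, 2.71, 1.63 and 0.954 CPM and TOL 1.09, 1.37, 1.18 and 1.89 CPM, against 4.86, 2.43, 5.27 and 5.45 in MOZ. All population libraries but CHW replicate 2 lay below all MOZ libraries. The log2 fold change was -1.44 (SE 0.275, edgeR adjusted p 0.00027). Its SEK libraries, at 0.202, 0.846, 0.152 and 0.436 CPM, were below all others, so this gene had 3 levels, highest in MOZ and lowest in SEK.

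The sequencing run is nearly confounded with these comparisons, since CHW alone was in both runs. Within CHW, second run (replicates 3 and 4) against first run (replicates 1 and 2), edgeR called 0 members and 0% of 11352 genes. DESeq2 called 0 members too, beside 0.00881% of 11352 genes. With so few libraries, 0 calls does not show that the runs were alike. In edgeR 8 members had an unadjusted p under 0.05, a count whose share over all genes is not given here. The median log2 fold change was 0.193 over the members and 0.018 over all genes, and 39 members were above 0, beside 53.3% of all genes. Without CHW replicate 3 edgeR called 2 members, AARA002311 and AARA003493, named here for that reason, beside 0.189% of 11621 genes, with the remaining second-run library assumed to vary like the other groups. In the second run alone CHW differed from MOZ in 5 members, beside 6.90% of all genes. With the run as a covariate 12 members were called for the populations against MOZ, 10 higher and 2 lower, beside 5.84% of all genes higher and 3.28% lower, and 8 of the 12 were among the 17. For ASN vs MOZ 7 were called with this covariate, 11.3% of the members beside 10.0% of all genes, and 6 of them were among the 19. In the second run alone 59 of the 62 members met the rule, a count that says little about the run, because the same SEK and MOZ libraries had chosen the members and only the CHW mean and the loss of ASN and TOL could alter it. The exceptions, named here for that reason, were AARA016530, AARA008175 and AARA008208, in which SEK averaged 5.41, 1.99 and 4.87 CPM against 10.8, 3.54 and 8.71 in CHW replicates 3 and 4.

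Between the field populations fewer members were called than against MOZ, as was true of all genes. For ASN vs CHW 4 members were called, 6.45%, all higher in ASN, beside 3.64% of all genes called and 2.82% higher. For CHW vs TOL 6 were called, 9.68%, all lower in CHW, beside 3.50% called, 0.781% higher and 2.72% lower. For ASN vs TOL 1 was called, 1.61%, lower in ASN, beside 1.39% called, 1.04% higher and 0.345% lower. These counts were small and some rested on single libraries. Without ASN replicate 3 the first fell to 2, which is 3.23% beside 2.82% of all genes. The last fell to 0 without any one of ASN replicates 1 to 3 or TOL replicates 1 to 3, beside 0.745% to 1.2% of all genes.

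AARA008208 had the largest difference among the members called in both comparisons that involve CHW and another population. It had 15.4, 40.0, 32.6 and 37.0 CPM in ASN. CHW had 9.81, 11.9, 13.9 and 3.54 CPM and TOL 25.3, 54.1, 30.3 and 31.4 CPM, with every CHW library below every ASN and TOL library. The log2 fold change was 1.66 for ASN vs CHW (SE 0.389, edgeR adjusted p 0.00724), and with the run as a covariate it was 1.52 (adjusted p 0.0673). For CHW vs TOL it was -1.90 (SE 0.390, edgeR adjusted p 0.00421). Its SEK libraries held 4.52, 6.43, 5.64 and 2.90 CPM and its MOZ libraries 32.4, 12.5, 28.1 and 19.8, so that the CHW mean lay between the SEK mean and the others, with CHW replicate 4 inside the SEK range.

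AARA002311, the member called for ASN vs TOL, was uneven in a different way. It had 4.99, 4.82, 4.80 and 4.65 CPM in SEK, 6.85, 5.67, 10.5 and 24.6 in ASN, 4.78, 6.26, 6.74 and 31.5 in CHW, 36.0, 27.96, 42.1 and 33.9 in TOL, and 52.1, 35.2, 30.5 and 44.3 in MOZ. SEK was nearly constant, TOL and MOZ were high in all libraries, and ASN and CHW each had 3 low libraries and 1 high one. Without ASN replicate 4 or without CHW replicate 4 it was no member. The log2 fold change for ASN vs TOL was -1.65 (SE 0.442, edgeR adjusted p 0.0328), and with single libraries left out it ranged between -2.17 (without ASN replicate 4) and -1.44 (without ASN replicate 2).

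Some members varied together between libraries of 1 group. Over the 16 libraries other than SEK, with each group centred on its mean of log2(CPM + 0.5), the 1891 pairs of members had a median Pearson r of 0.03, and 19 pairs reached 0.8. The share of pairs at 0.8 among all genes is not given here, so the 19 pairs are not read as a trait of the members. These correlations are descriptions over libraries that share preparation and depth, and the sets below were chosen after the values were seen. AARA016552, AARA009324, AARA010234 and AARA002457 had r of 0.882 to 0.964 with each other. All 4 were lowest in replicate 1 among the ASN libraries and lowest in replicate 4 among the CHW libraries. AARA009324 held 12.7, 13.2, 11.6 and 11.5 CPM in SEK, against 28.4, 47.5, 47.4 and 59.2 in ASN, 35.7, 25.5, 37.0 and 18.8 in CHW, 58.8, 52.4, 50.6 and 49.9 in TOL, and 28.3, 25.1, 30.4 and 20.04 in MOZ. Relative to their means, its SEK and TOL libraries were even, and those of ASN and CHW varied more.

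A second set held AARA016189, AARA008752 and AARA016190, with r of 0.797 to 0.899. The IDs AARA016189 and AARA016190, with r of 0.833, are consecutive. Whether they share reads is not known from the sources used here and was not tested. AARA016189 had 4.38, 1.18, 7.84 and 17.7 CPM in SEK, 23.7, 36.4, 16.7 and 114 in ASN, 31.7, 23.3, 512 and 112 in CHW, 116, 230, 28.7 and 141 in TOL, and 11.6, 40.8, 0.0567 and 79.4 in MOZ. Its group means ran from 7.78 CPM in SEK to 170 in CHW, and MOZ replicate 3, with 1 count, lay below every SEK library. AARA008752 and AARA016190 were highest in CHW replicate 3 too, at 27.7 and 28.4 CPM, and had 0 counts in MOZ replicate 3. In AARA016189 the libraries of CHW alone ran from 23.3 to 512 CPM.

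**Figure D5:**
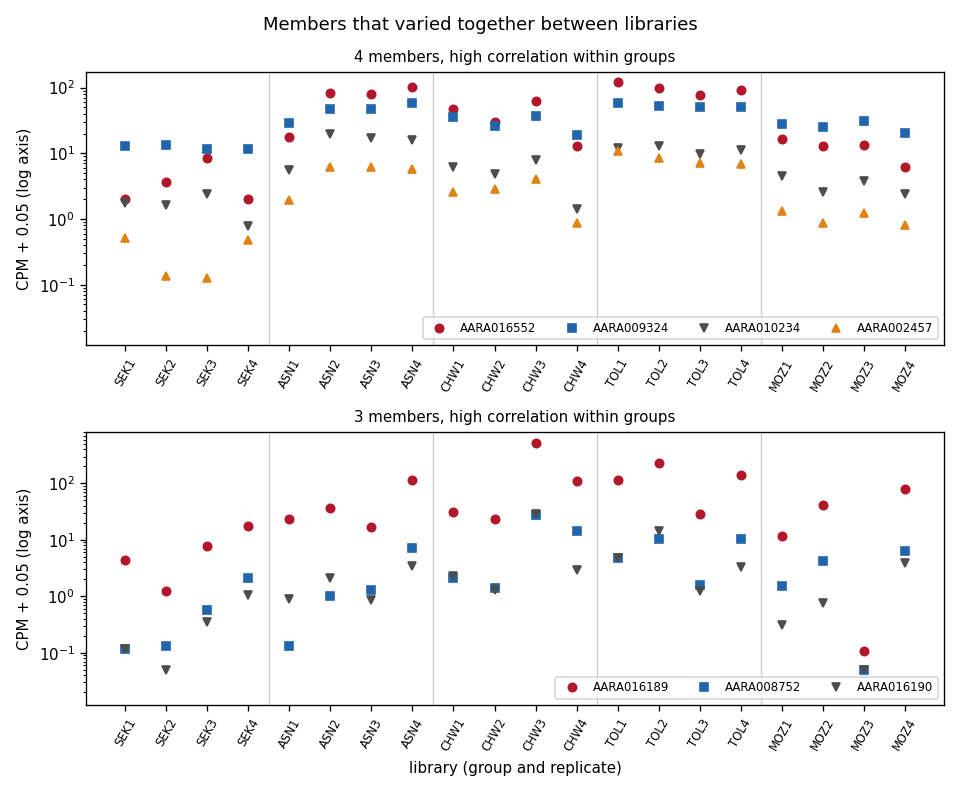
CPM plus 0.05 (log axis) per library for 4 members (top) and 3 members (bottom) that varied together within groups; libraries are named by group and replicate, and replicates have no order. In the top panel ASN replicate 1 and CHW replicate 4 are low in all 4 genes, and in the bottom panel CHW replicate 3 is high and MOZ replicate 3 near 0.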

How the data were processed

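Gene counts were analysed for 20 libraries in 5 groups of 4. The deposited values are whole-number counts that the authors left unnormalized, since all are whole and library totals differ. FastQC 0.11.4, HISAT2, Cufflinks, SAMtools 1.5 and HTSeq 0.9.0 are named in the submitters' processing notes, without their roles. For genome build, annotation, use of strand and shared reads the entry is: not given in the sources used here. So values of overlapping, antisense or near-identical genes are uncertain.

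Members were found on CPM over nuclear counts. Tests were run on all genes with edgeR 4.0.16 in R 4.3.3: filterByExpr by group, TMM, a quasi-likelihood fit of the 5 groups without covariates (common biological coefficient of variation 0.189), and Benjamini-Hochberg adjustment over all genes. For the run comparison CHW was split by run. SE is the log2 fold change divided by the square root of F. DESeq2 1.42.0 was an alternative. The tests were tried on simulated data with known changes. Folds against 0 counts used 3 counts over the 4 SEK libraries, and intervals for pooled ratios are exact at 95%; both cover counting error only.

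The members and the choice of comparisons were fixed with earlier results of these data known. Members are named by a rule: of those with SEK below all 16 other libraries, the 2 with the lowest ratio and the 2 with the most SEK counts; the 2 genes on each side of the threshold; for the populations against MOZ the 2 highest and 2 lowest called; the largest called difference in each pair of populations; up to 2 called between the runs; and the extremes of SEK replicate 2 against the other SEK libraries (0.5 CPM added). Others are marked as named after their values were seen.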

Additional observations from a re-analysis of the deposited data

Results flagged for a closer look

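Values that stood far from the other 3 libraries of their group were looked for in the members named by the rule and in the summed share of all members, 70 groups of 4 values in all. A value is listed when its gap to the nearest library, as a share of the group's range, passed Dixon's 95% limit for 4 samples. Chance marks about 1 in 20 groups, and 6 were marked. CHW replicate 4 accounts for 4 of them. It held 188.2 CPM of AARA001523, against 99.3 to 102 in the other CHW libraries, 10.15 CPM of AARA000586, against 0.31 to 1.05, 31.5 CPM of AARA002311, against 4.78 to 6.74, and 5.65 CPM of AARA006051, against 1.27 to 1.54. ASN replicate 1 held 1.92 CPM of AARA002457, against 5.74 to 6.11 in the other ASN libraries. SEK replicate 4 held 0.0726 CPM of AARA000528, which is 1 count, against 0 in the other SEK libraries. With those at 0, any count in replicate 4 passes the limit, so the chance rate above does not apply to this mark.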

How the results depend on the processing

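The rule gave 26 members at a fold of at least 3, 163 at 1.5, and 107 within the second run alone. It gave 44 with mitochondrial counts in the total, 62 with TMM scaling (51 of them among the 62), and 66 without both SEK replicate 2 and TOL replicate 1, an alternative chosen after seeing the data. Leaving out 1 library gave 55 (without CHW replicate 4) to 74 (without SEK replicate 3), and 68 without SEK replicate 2. Members called with 1 library left out are given with the share of all genes called in brackets. Against MOZ they were 15 to 20 for ASN (14.7% to 16.4%) and 10 to 16 for CHW (9.73% to 11.2%). For TOL they were 13 to 17 (13.1% to 14.6%), and for the populations together 15 to 17 (12.5% to 13.9%). Between populations they were 2 to 6 for ASN vs CHW (2.82% to 4.37%) and 0 to 1 for ASN vs TOL (0.745% to 2.41%). For CHW vs TOL they were 5 to 9 (2.46% to 3.89%). CHW vs MOZ was 10 without CHW replicate 2 or MOZ replicate 2, which is 16.1% beside 10.1% of all genes. CHW vs TOL was 9 without CHW replicate 3, which is 14.5% beside 3.54%. The run as a covariate gave 7 for ASN vs MOZ, 8 for CHW vs MOZ (12.9% of members beside 8.07% of all genes) and 2 for ASN vs CHW (3.23% beside 3.69%), and the second run alone 5 for CHW vs MOZ. Library totals alone, which hold mitochondrial counts, gave 0 for ASN vs TOL, beside 1.59% of all genes. They gave 3 for CHW vs TOL, 4.84% of members beside 3.95%. Leaving out the SEK libraries gave 0 for ASN vs TOL, beside 1.33%. The causes were not tested.

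Of 40 same-numbered pairs of libraries from different groups 8 had deviations correlated over 0.1 (median r 0.01, highest 0.53), and of 120 other pairs 16 (highest 0.267). Since not every pair passed 0.1, the numbers were not taken to pair the samples, although 9 of 20 libraries correlated best with their own number, a hint from the data and not the design. With the replicate block 20, 14, 15 and 17 members were called for ASN, CHW, TOL and the populations against MOZ. These are 32.3%, 22.6%, 24.2% and 27.4% of members, beside 15.9%, 10.5%, 14.2% and 13.3% of all genes. With both the replicate block and a run term, chosen after seeing the data, they were 5, 9, 10 and 10, which is 8.06%, 14.5%, 16.1% and 16.1% of members beside 9.22%, 7.38%, 8.83% and 8.13% of all genes, and 2 for ASN vs CHW, 3.23% beside 3.90%. Of the members named for a test, AARA002457, AARA016552 and AARA015048 stayed called under all 26 alternatives run for each, and no named fold change reversed. AARA002311 lost its call for ASN vs TOL in 8 of 26, with adjusted p-values up to 0.118. Of the 9 members with under 20 SEK counts, AARA016190 overlapped the other groups.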

Other observations

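The set around AARA016552 reached beyond the members. Of 9841 other genes at 1 CPM or more, 20 had r of at least 0.9 with it within groups over the 16 libraries other than SEK, 3 of them members. The nearest, AARA004865, had r of 0.982. No gene reached 0.9 with AARA016189, the highest being AARA008752 at 0.899. These genes were chosen after the values were seen, and the correlations are descriptions over libraries of the same preparation.

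All members together took 0.0377% to 0.0393% of nuclear counts in SEK, 0.116% to 0.151% in ASN, 0.0992% to 0.181% in CHW, 0.149% to 0.213% in TOL and 0.127% to 0.145% in MOZ.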
